A study of Mus musculus with 4 samples.

Results

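The 5 genes described here are known from macrophages and dendritic cells of the lung: Mrc1, Siglecf and Cd207, which encode lectin receptors, and Apoe and Plin2, which encode proteins of lipid handling. They were chosen by gene symbol, with their log ratios in these same arrays in view, from the 13410 genes that the platform's annotation names. Each was measured by 1 probe. Lung RNA of 4 bleomycin-treated A/J mice was hybridised, each mouse on its own 2-colour array, beside amplified RNA pooled from control A/J lungs. A/J mice are inbred, and bleomycin damages DNA and is used to injure the lung. The treated group holds mice 1 to 4, the control is 1 pool, and the labels give no dose, route, time, age or sex. The comparison asks how the lung's transcripts differ between treated and control animals of this strain.

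Every value below is a centred log ratio, the deposited log ratio of the 2 RNAs minus the median of its array, with the base of the logarithm taken as 2. The sources do not say which RNA is the numerator. The order of names in the titles would put the treated mouse on top, so that a gene above 0 would have more transcript after bleomycin. That reading is open, and with the pool on top every sign turns while sizes, spreads and the order of sizes stay. The arrays ran the same way, since their correlations over spots lay between 0.45 and 0.86, with the highest values for mice 3 and 4 (0.86) and mice 1 and 2 (0.73). Between 9427 and 12136 of 17280 spots had a value. The control pool contributes no spread of its own, and the number of arrays limits the precision. An offset of the pool in a gene would enter all arrays alike, as would a dye effect if the dyes were not swapped. Neither can be told apart from treatment, also in the tests below. In lung RNA, fewer cells of a type and less RNA per cell cannot be told apart.

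Lung macrophages live mainly in the airspaces, where they take up surfactant lipid, and in the tissue between them; dendritic cells carry antigen to lymph nodes. Both recognise sugars through lectin receptors, some of which bind mannose on microbes and others sialic acid on host cells. Lipid that a macrophage takes up is stored in droplets, burned, or handed to lipoprotein particles outside the cell. Bleomycin injury is known to draw monocytes into the lung, which become macrophages there.

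The stretches upstream of the start sites are shown because the 3 lectin receptor genes lay on one side of 0 on every array that measured them, Mrc1 on 3 and the others on 4, and Plin2 on the other. Each is the 250 bases before the start, 5′ to 3′ on the gene's own strand, from RefSeq (GRCm38.p6). All 5 genes matched that table. Apoe, which also lay above 0 on every array, had 3 starts, and its 3 stretches are not printed. Only 1 of these held the ETS core described below. Capitals mark 2 kinds of word in Cd207 and 1 kind in each of the other printed genes, on either strand. The words are the core AGGAAG of ETS factors such as PU.1, the AP-1 word TGANTCA, and the nuclear receptor half-site AGGTCA. In the printed stretches the ETS core always reads CTTCCT, and in the Apoe stretch that held it, AGGAAG. The half-site reads TGACCT in Plin2. The words were chosen after the sequences had been seen.
Mrc1, chr2:14229164-14229413, plus strand: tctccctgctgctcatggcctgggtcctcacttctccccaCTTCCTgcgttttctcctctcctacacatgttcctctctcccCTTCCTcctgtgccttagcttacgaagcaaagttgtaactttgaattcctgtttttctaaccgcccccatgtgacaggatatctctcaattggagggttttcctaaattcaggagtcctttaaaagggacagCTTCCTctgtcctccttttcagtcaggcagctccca
Siglecf, chr7:43351091-43351340, plus strand: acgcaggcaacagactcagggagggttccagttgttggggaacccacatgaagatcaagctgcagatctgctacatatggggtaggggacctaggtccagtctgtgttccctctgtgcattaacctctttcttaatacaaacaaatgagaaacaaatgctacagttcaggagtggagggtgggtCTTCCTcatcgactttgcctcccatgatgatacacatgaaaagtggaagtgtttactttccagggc
Cd207, chr6:83677858-83678107, minus strand: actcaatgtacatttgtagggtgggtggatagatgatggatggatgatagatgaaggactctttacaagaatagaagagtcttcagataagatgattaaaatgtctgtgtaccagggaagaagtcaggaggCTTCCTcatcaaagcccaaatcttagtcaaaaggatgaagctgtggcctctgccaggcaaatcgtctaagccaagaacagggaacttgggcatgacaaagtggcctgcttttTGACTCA
Plin2, chr4:86670060-86670309, minus strand: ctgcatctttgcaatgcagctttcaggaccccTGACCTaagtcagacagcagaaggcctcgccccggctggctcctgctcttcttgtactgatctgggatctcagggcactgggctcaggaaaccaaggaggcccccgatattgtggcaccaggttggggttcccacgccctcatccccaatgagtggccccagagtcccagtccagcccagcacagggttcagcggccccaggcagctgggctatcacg

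The ETS core stood 3 times upstream of Mrc1, beginning 210, 168 and 36 bases before the start. It stood once upstream of Siglecf, at 66 bases, and once upstream of Cd207, at 119 bases. One of the 3 Apoe stretches held it, at 192 bases, and the Plin2 stretch did not. Of 32851 stretches of the same length in the table, 29.5% held this word. The AP-1 word ended at the last base before the Cd207 start and was in 6.7% of all stretches. The half-site upstream of Plin2 began 218 bases before the start and was in 14%. The E-box CACGTG, searched as well, was in 6.0% of all stretches and in none of those of these genes. A match is a description of letters, not a binding site.

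Cd207 encodes langerin, a mannose-binding receptor of Langerhans cells and of a class of lung dendritic cells. Its log ratio was 1.22, 1.33, 1.09 and 1.01 in mice 1, 2, 3 and 4. All 4 mice lay above 1, and the values span 0.31. The mean was 1.16 ± 0.14 (SD, n = 4), a 2.24-fold difference if the base is 2, and 56 of 8384 genes had a greater mean. It was the farthest from 0 of the 5 genes by mean. Counted per array, between 39 and 223 genes had a greater log ratio.

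Mrc1 encodes the mannose receptor CD206, which takes up glycoproteins and is abundant on alveolar macrophages. It had no value in mouse 1. Its log ratio was 0.56 in mouse 2, 0.79 in mouse 3 and 0.88 in mouse 4. The 3 measured mice lay close together, on the same side of 0 as Cd207. The mean was 0.74 ± 0.16 (SD, n = 3), or 1.67-fold if the base is 2.

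Siglecf encodes a receptor for sialic acid found on alveolar macrophages and on eosinophils. Its log ratio was 0.74 in mouse 1 and 0.45, 0.51 and 0.48 in mice 2, 3 and 4. Mouse 1 was the highest, and the other 3 lay within a narrow band. The mean was 0.54 ± 0.13 (SD, n = 4), or 1.46-fold if the base is 2, the smallest of the 5 genes.

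The order among the lectin receptor genes was Cd207, Mrc1, Siglecf in each of the 3 mice that measured all of them. Cd207 exceeded Siglecf by 0.48, 0.87, 0.58 and 0.53 in mice 1 to 4, a mean of 0.62 ± 0.18 (SD, n = 4). The gap between Mrc1 and Siglecf was smaller, 0.11, 0.28 and 0.40 in mice 2, 3 and 4. These gaps compare ratios, not amounts of transcript. Averaged on each array, the receptor genes stood at 0.98 in mouse 1, where only 2 of them were measured, and at 0.78, 0.80 and 0.79 in mice 2, 3 and 4.

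Apoe encodes apolipoprotein E, which macrophages secrete and which carries cholesterol and other lipids out of the cell. Its log ratio was 0.78, 0.35, 1.52 and 1.18 in mice 1, 2, 3 and 4. All lay above 0, but the values span 1.17, and mice 3 and 4 were above mice 1 and 2. The mean was 0.96 ± 0.51 (SD, n = 4), or 1.94-fold if the base is 2. Mice 3 and 4 together averaged 1.35 and mice 1 and 2 averaged 0.56. The size of that gap, 0.79, was larger than that of 93.6% of 6057 genes with 4 values. The labels do not name these pairs of mice, and this split was seen in earlier results of these data.

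Plin2 encodes perilipin 2, a coat protein of lipid droplets in many cells, among them foamy macrophages. Its log ratio was -1.35, -0.69, -0.94 and -0.31 in mice 1, 2, 3 and 4. All 4 lay below 0, mouse 1 farthest and mouse 4 nearest. The mean was -0.82 ± 0.44 (SD, n = 4), or 1.77-fold if the base is 2, and 148 of 8384 genes had a lower mean. On each array, Plin2 stood on the other side of 0 from the other genes of the 5 that had a value.

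**Figure D1:**
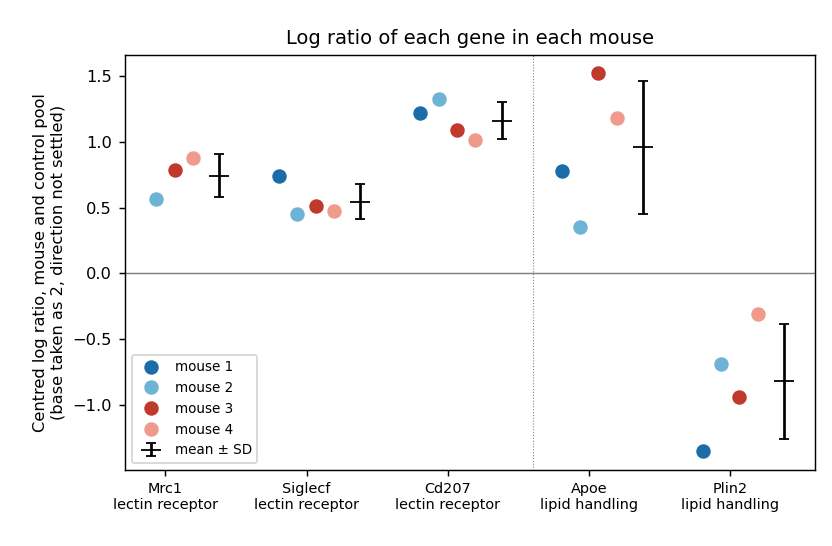
Centred log ratio (vertical axis, base taken as 2) of each of the 5 genes in each of 4 mice (coloured points), with the mean and SD in black. The lectin receptor genes lie above 0 within narrow ranges, Apoe lies above 0 between 0.35 and 1.52, and Plin2 lies below 0 between -1.35 and -0.31.

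The spread between mice set the lectin receptor genes apart from the lipid genes as a description. The SD of Cd207, Mrc1 and Siglecf was 0.14, 0.16 and 0.13, against a median of 0.17 over all genes tested. Apoe and Plin2 had SDs of 0.51 and 0.44, larger than those of 93.4% and 90.6% of genes. The 2 lipid genes did not mirror each other. Their gap was 2.13, 1.05, 2.46 and 1.49 in mice 1 to 4, and Plin2 was farthest from 0 in mouse 1 whereas Apoe was so in mouse 3. Because of Apoe, the order of the genes differed between mice: Cd207 was above Apoe by 0.44 and 0.97 in mice 1 and 2 and below it by 0.43 and 0.17 in mice 3 and 4.

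The genes whose values were most like those of each of the 5 were found by the root mean square difference over the arrays on which that gene was measured. For Mrc1, over 3 arrays, these were Timp3 (0.0086), Taf1b (0.041) and Plekhb2 (0.070). For Siglecf, over 4 arrays, they were Chmp5 (0.048), Tbc1d19 (0.055) and Hmgb2 (0.068). For Cd207 they were Mal2 (0.036), Zfp281 (0.11) and Herpud1 (0.12). For Apoe they were Lrrc58 (0.039), Slc35b1 (0.094) and Nsmce2 (0.11). For Plin2 they were 3000002C10Rik (0.13), Fmc1 (0.15) and Atp5g1 (0.17). Each was taken from 6056 genes over 4 arrays (6407 over 3), and none is on a list used here. Likeness over so few arrays is a description only.

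Other genes of macrophages, dendritic cells, lectin receptors and lipid handling were tested against 0 with limma, at a Benjamini-Hochberg adjusted p of at most 0.05 over 8384 genes. Over all genes 12.5% passed, 7.69% above 0 and 4.81% below. The 5 genes themselves are left out of every count that follows. The lists were written with earlier results of these data known, so their shares are descriptions.

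The few genes of alveolar macrophages, other than Mrc1 and Siglecf, that passed the test lay above 0. Of 35 listed, 31 had a probe and 21 were tested; 4 passed above 0 and 0 below (7 and 1 at an unadjusted limma p under 0.05), or 19.0%, and the median was 0.17, against 0.0015 over all genes tested. The 4 were Slc7a2, an arginine transporter gene, at 0.54 ± 0.21 (SD, n = 4), the adhesion receptor gene Cd2 at 0.47 ± 0.19 (SD, n = 4), Mertk, a receptor for dying cells, at 0.71 ± 0.31 (SD, n = 3), and the transcription factor gene Bhlhe40 at 0.76 ± 0.44 (SD, n = 4). Markers in use for these cells that were fixed by name were mixed where measured. Fabp4 and Fabp5 had no value on any array, and Chil3 and Ear2 had no probe. Itgax is on the dendritic cell list too, and other lung cells also express Car4 and Cd2. Marco, a scavenger receptor gene of alveolar macrophages, had log ratios of -1.23 and -1.47 in mice 1 and 2 and 0.33 and 0.41 in mice 3 and 4, so that the pairs of mice fell on opposite sides of 0. Itgax, the CD11c gene, had a mean of -0.31 ± 0.21, Pparg, a regulator of their development, 0.08 ± 0.43, and Car4, a carbonic anhydrase gene, 0.43 ± 0.27 (SD, n = 4), with limma adjusted p of 0.0913, 0.789 and 0.0623. None of the 4 calls held without every mouse in turn: Slc7a2 was lost without mouse 1, 2 or 3, Cd2 and Bhlhe40 without mouse 1, 3 or 4, and Mertk in each such fit (highest limma adjusted p among these losses, 0.129).

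Genes of other macrophages and monocytes that passed lay mostly below 0, the side of Plin2. Of 51 listed, 40 had a probe and 21 were tested; 5 passed below 0 and 1 above, or 28.6%, and the median was -0.24, below 0 in each mouse. Cx3cr1, the fractalkine receptor gene, had log ratios of -0.98, -1.44, -1.36 and -0.84 in mice 1 to 4. Its mean was -1.15 ± 0.29 (SD, n = 4; limma adjusted p = 0.00865). Cd163, the receptor for haemoglobin bound to haptoglobin, had a mean of -0.70 ± 0.18, the gene of PU.1, Spi1, of -0.88 ± 0.42, and the coagulation factor gene F13a1 of -0.58 ± 0.27 (SD, n = 4). The other gene below 0 was the matrix metalloproteinase gene Mmp14, at -0.39 ± 0.03 (SD, n = 3), and the gene above 0 was Selenop, a selenium carrier gene that is also abundant outside macrophages, at 1.26 ± 0.68 (SD, n = 4); both were named after their values were seen. Cx3cr1 and Cd163 passed whichever mouse was left out. Spi1 was lost without mouse 2, 3 or 4, F13a1 without mouse 1, 3 or 4, Selenop without mouse 1, 2 or 3 and Mmp14 in each such fit (highest limma adjusted p among these losses, 0.146).

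Several genes of this list that were fixed by name did not pass. C1qb, a subunit of complement C1q, had log ratios of -1.38, -1.70, -0.40 and -0.33 in mice 1 to 4 (limma adjusted p = 0.0634). C1qa had a mean of -0.61 ± 0.71 (SD, n = 3), and the lysosomal glycoprotein gene Cd68 of -0.07 ± 0.22 (SD, n = 4). Trem2, a lipid-sensing receptor gene, and Gpnmb, which marks lipid-laden macrophages, had means of -0.16 ± 0.08 and -0.07 ± 0.21 (SD, n = 4). The limma adjusted p of C1qa, Cd68, Trem2 and Gpnmb was 0.202, 0.692, 0.163 and 0.661. Adgre1, Mmp12, Lyve1 and Arg1 had values on only 2 arrays and were not tested at the minimum of 3 arrays. Adgre1, Mmp12 and Lyve1 lay above 0 on both of their arrays and Arg1 below.

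Dendritic cell genes other than Cd207 showed no common side. Of 43 listed, 38 had a probe and 26 were tested; 3 passed above 0 and 1 below, or 15.4%, and the median was 0.04. Epcam, an adhesion gene of Langerhans cells that lung epithelium expresses too, had log ratios of 0.83, 0.64, 0.72 and 0.66 in mice 1 to 4. The costimulatory receptor gene Cd40 had a mean of 0.51 ± 0.09, Naaa, a lysosomal lipid hydrolase gene, of 0.69 ± 0.35, and the chemokine gene Ccl17 of -0.65 ± 0.36 (SD, n = 4). Flt3, the receptor for the growth factor of dendritic cells, had a mean of 0.24 ± 0.18, Batf3, a transcription factor gene of cross-presenting cells, of -0.06 ± 0.20, and Irf8 of -0.07 ± 0.08 (SD, n = 4), with limma adjusted p of 0.130, 0.701 and 0.480. Itgae, the CD103 gene, which accompanies langerin on lung dendritic cells, had values on 2 arrays, -0.07 and -0.13. Epcam passed whichever mouse was left out, Cd40 and Naaa were lost without mouse 1, 3 or 4 and Ccl17 in each such fit (highest limma adjusted p among these losses, 0.114). Naaa was also lost with arrays scaled to one spread (limma adjusted p = 0.0613), and its 2 probes averaged 1.01 ± 0.30 (SD, n = 4) and 0.11 ± 0.14 (SD, n = 3).

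**Figure D2:**
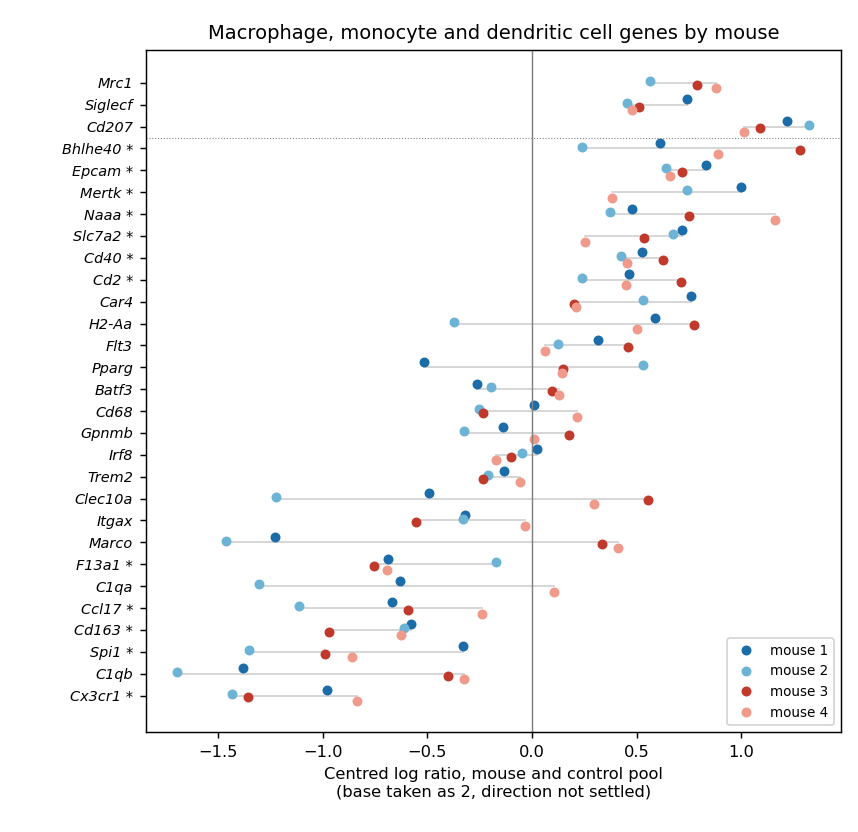
Centred log ratio (horizontal axis, base taken as 2) in each mouse for the 3 lectin receptor genes (top) and the named genes of macrophages, monocytes and dendritic cells, ordered by mean; an asterisk marks genes past the limma test, whose result is not given for the top 3. Marco and Clec10a have mice 1 and 2 below 0 and mice 3 and 4 above it, whereas Cx3cr1 is below 0 in all 4.

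Lectin receptor genes as a family stood near the background. Of 54 others listed, 45 had a probe and 27 were tested; 1 passed above 0 and 2 below, or 11.1%, and the median was -0.05. Thbd, thrombomodulin, an endothelial protein with a lectin-like domain, had a mean of 0.55 ± 0.27 (SD, n = 4). Clec1b, the podoplanin receptor gene of platelets, had a mean of -0.59 ± 0.26 (SD, n = 4), and Clec4a2, an inhibitory receptor gene of myeloid cells, of -0.51 ± 0.20 (SD, n = 3). Among nearer relatives of the 3 receptors, Clec10a, a galactose-binding receptor gene, had log ratios of -0.49, -1.23, 0.56 and 0.30 in mice 1 to 4 and did not pass (limma adjusted p = 0.653). Clec4f, which lies next to Cd207 in the genome, had a mean of -0.07 ± 0.18, and Cd22, a sialic acid receptor gene of B cells, of -0.05 ± 0.16 (SD, n = 4), with limma adjusted p of 0.626 and 0.708. Mrc2, a close relative of Mrc1, had no value on any array. Clec1b was lost without mouse 1, 3 or 4, and Thbd and Clec4a2 in each fit without 1 mouse (highest limma adjusted p among these losses, 0.145). Clec4a2 was also lost without centring and with genes measured on at least 2 arrays, at limma adjusted p of 0.0517 and 0.0506.

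Among genes of apolipoproteins and cholesterol handling, those past the test lay mostly on the side opposite to Apoe. Of 44 listed, 37 had a probe and 22 were tested; 5 passed below 0 and 1 above, or 27.3%, and the median was 0.01. Npc1, which exports cholesterol from lysosomes, had log ratios of 1.04, 0.86, 1.14 and 0.85 in mice 1 to 4. Its mean was 0.97 ± 0.14 (SD, n = 4; limma adjusted p = 0.00653). Apobr, a receptor gene of macrophages for lipoproteins with apolipoprotein B, had a mean of -0.62 ± 0.11, the lipid transporter gene Abca7 of -0.67 ± 0.19, and the apolipoprotein gene Apod of -0.84 ± 0.35 (SD, n = 4). The transporter gene Abca1, which loads lipid onto apolipoproteins, had -0.32, -0.25, -0.35 and -0.24 in mice 1 to 4. The other gene past the test, Scarb1, a receptor gene for high-density lipoprotein and named with its value known, had a mean of -0.66 ± 0.37 (SD, n = 4). Npc1 and Apobr passed whichever mouse was left out. Abca7 was lost without mouse 3, Apod without mouse 1, 2 or 3, and Abca1 and Scarb1 in each such fit (highest limma adjusted p among these losses, 0.124).

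Several partners of Apoe did not pass. Abcg1, which like Abca1 exports cholesterol, had log ratios of 0.81, 0.90, 0.40 and 0.16 in mice 1 to 4 (limma adjusted p = 0.0516). The fatty acid transporter gene Cd36 had a mean of 0.81 ± 0.63 (SD, n = 4; limma adjusted p = 0.0763). Nr1h3, which encodes the sterol sensor LXR alpha, had a mean of 0.06 ± 0.12 (SD, n = 4), and the receptor gene Lrp1 of 0.14 ± 0.10 (SD, n = 3). Npc2, the lysosomal partner of Npc1, was at -0.04 and -0.29 in mice 1 and 2 and at 0.97 and 0.87 in mice 3 and 4.

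Lipid droplet genes passed on both sides, and the perilipins were split. Of 56 listed, 48 had a probe and 37 were tested; 4 passed above 0 and 2 below, or 16.2%, and the median was 0.06. Plin4, a perilipin gene of fat cells, was below 0 like Plin2, at -1.07, -0.81 and -0.49 in mice 1, 3 and 4. Plin3, a widely expressed perilipin gene, was above it, at 0.20, 0.36, 0.33 and 0.37 in mice 1 to 4. Plin5, a perilipin gene of oxidative tissues, had a mean of 0.01 ± 0.39 (SD, n = 3; limma adjusted p = 0.964). The phosphatidate phosphatase gene Lpin2 had a mean of 0.67 ± 0.06 (SD, n = 4), Ubxn4, a gene of endoplasmic reticulum protein degradation, of 1.08 ± 0.36 (SD, n = 4), and the caveola gene Cav1 of 0.91 ± 0.18 (SD, n = 3). Cidea, known from droplets of brown adipocytes, averaged -2.53 ± 1.55 (SD, n = 4). The triglyceride lipase gene Pnpla2 and the PPAR target Angptl4 had means of 0.13 ± 0.03 and 0.04 ± 0.30 (SD, n = 4), short of the threshold (limma adjusted p of 0.202 and 0.871). Lpin2, Ubxn4 and Cav1 passed whichever mouse was left out, but the 2 probes of Lpin2 disagreed, with means of 0.19 ± 0.21 and 1.15 ± 0.13 (SD, n = 4). Lpin2 was lost when only the first of them was used (limma adjusted p = 0.225). Plin4 and Cidea were lost without mouse 1, 3 or 4 and Plin3 in each such fit (highest limma adjusted p among these losses, 0.123).

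**Figure D3:**
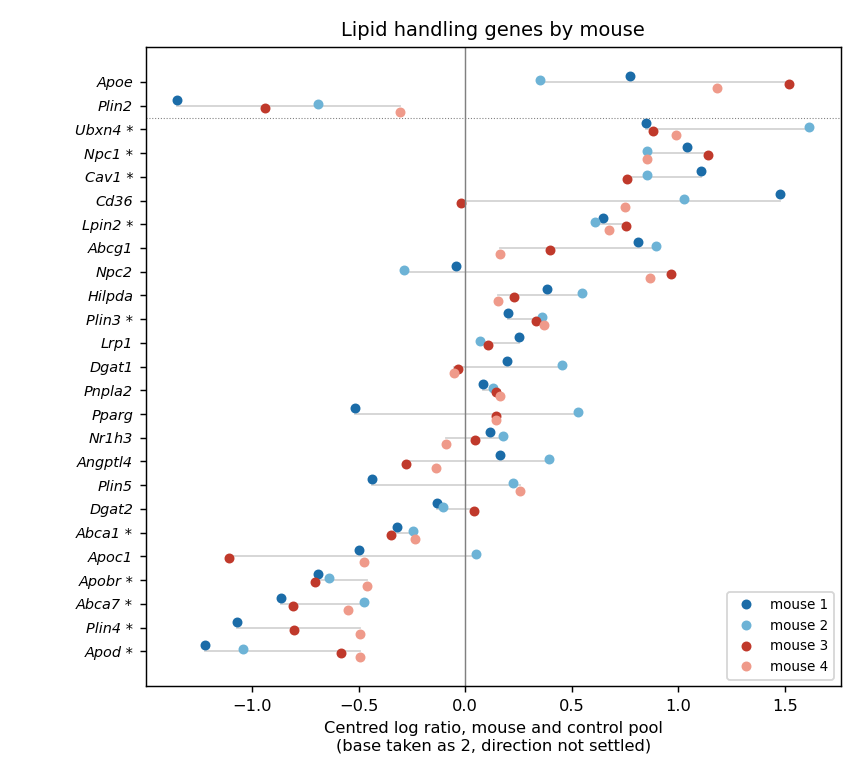
Centred log ratio (horizontal axis, base taken as 2) in each mouse for Apoe and Plin2 (top) and the named genes of lipid handling, ordered by mean; an asterisk marks genes past the limma test, whose result is not given for the top 2. Npc1 lies above 0 and Abca1, Apobr and Abca7 lie below 0 in all 4 mice.

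**Figure D4:**
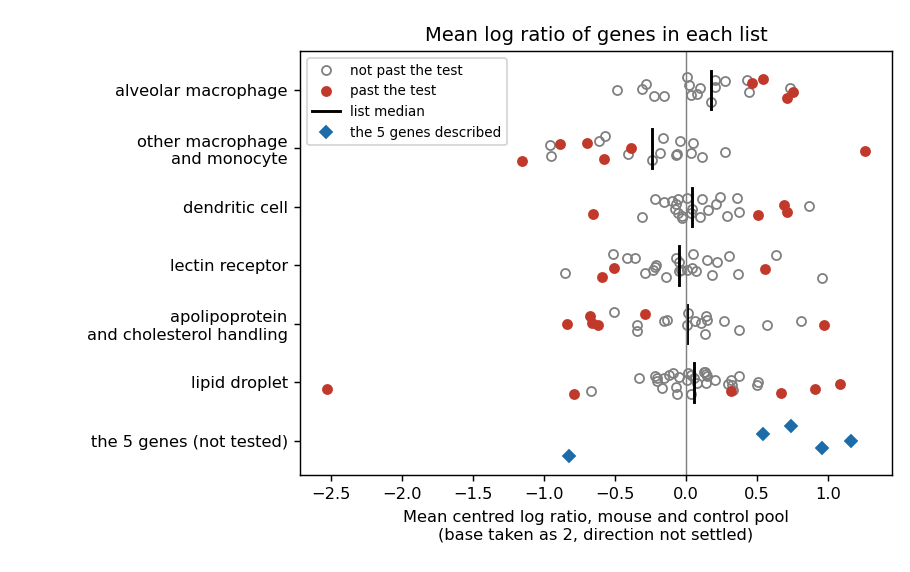
Mean centred log ratio (horizontal axis, base taken as 2) of each tested gene of 6 lists, filled where the gene passed the limma test, with the list median as a bar and the 5 genes as diamonds. The medians run from -0.24 for other macrophages and monocytes to 0.17 for alveolar macrophages.

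Markers of other cells that express these genes moved as follows, and their part in the values of the 5 genes was not tested. For Plin2, 4 of 10 tested fat cell genes passed below 0 and 0 above, or 40%, against 12.5% over all genes. The fat cell list was written with earlier results of these data known, so this share is a description only. The list median was -0.84, 0.00, -0.81 and -0.46 in mice 1 to 4. The 4 were Gpd1 at -0.54 ± 0.21 (SD, n = 4), Plin4, Cidea and Adipoq at -1.59 ± 0.99 (SD, n = 4); each was lost without mouse 1, 3 or 4 (highest limma adjusted p among these losses, 0.132). Adipoq was also lost with scaled arrays and with genes measured on at least 2 arrays (limma adjusted p of 0.0522 and 0.0512). In mouse 2 Plin2 was at -0.69, the fat cell median at 0.00, and Cidea, Gpd1 and Adipoq at -0.72, -0.27 and -0.12. Plin4 had no value there, and the fat cell genes that did not pass ran from -0.06 (Ucp1) to 0.55 (Scd1). For Siglecf, none of the 5 tested eosinophil genes passed limma (0%, with 1 at an unadjusted p under 0.05), with means from -0.55 to 0.02. With 12.5% passing over all genes, so short a list may hold none. The granule protein genes Epx and Prg2 had 0 and 2 values. For Mrc1, which lymphatic vessels express too, none of 4 tested genes of lymphatic endothelium passed limma, again a short list (0%, with 2 at an unadjusted p under 0.05, both below 0). Lyve1, a receptor gene of lymphatic vessels and of some macrophages, had 1.49 and 2.03 in mice 2 and 4 and no value in mice 1 and 3. When genes measured on at least 2 arrays were tested, 1 lymphatic gene passed above 0. With scaled arrays, and also without mouse 2, 1 lymphatic gene passed below 0. Alveolar type II cells hold much lipid, and of their 11 genes tested 1 passed above 0 and 0 below, or 9.09%. It was Sftpa1, a surfactant protein gene, at 1.28 ± 0.26 (SD, n = 4), and it passed whichever mouse was left out. Of 22 tested genes listed for leukocytes in general, 1 passed on each side of 0, or 9.09%. These were Cd47, which most other cells express too, at 0.50 ± 0.15 (SD, n = 4) and Cd52 at -1.0 ± 0.39 (SD, n = 3). Cd47 was lost without mouse 1, 3 or 4 and Cd52 without mouse 1 or 3 (highest limma adjusted p among these losses, 0.0783). Cd47 was also lost with only the probe of most values (limma adjusted p = 0.0601). Ptprc, the CD45 gene of all leukocytes, had a mean of 0.29 ± 0.23 (SD, n = 4; limma adjusted p = 0.119), and Tyrobp and Fcer1g, signalling adaptors of myeloid cells, had -0.34 ± 0.07 (SD, n = 3) and -0.64 ± 0.56 (SD, n = 4).

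In these arrays the other tested genes of macrophages, monocytes and dendritic cells lay on both sides of 0. With mice 1 and 2 as one random block in limma and mice 3 and 4 as another, 12 of the 34 list genes past the test still passed: Cx3cr1, Cd163, Npc1, Apobr, Abca7, Apod, Epcam, Cd40, Lpin2, Ubxn4, Cav1 and Sftpa1. Over all 8384 genes tested, 402 of the 1048 past the test still passed with these blocks. No gene of the alveolar macrophage, lectin receptor, fat cell or general leukocyte lists passed there (0 of each). With so few genes passing over all, lists this short may hold none.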

How the data were processed

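The deposited table held 1 log2 ratio per spot and array; that it is log2 was taken from the values, and neither base nor direction is stated per the labels. No source used here gives the scanner, the dyes, the background correction or how arrays were normalized, and signal over background could not be judged. The table held 0 columns of other samples. Probes were named by the platform's annotation: 14722 spots had 1 symbol, 1 had several and 2557 were not listed. Gene IDs of 14445 matched RefSeq (GRCm38.p6), which changed 0 symbols. Each array was centred on its median, and probes of 1 symbol were averaged. Genes with a value on at least 3 of 4 arrays (8384) were tested against 0 with limma 3.58.1 in R 4.3.3 (lmFit, eBayes, two-sided, Benjamini-Hochberg). The labels number 4 mice as separate replicates, and p-values measure the spread between these samples only. An exact sign test of 1 gene over 4 mice cannot go below p = 0.125.

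The 5 genes and 11 lists were chosen with earlier results of these data known, so the 5 are described and not tested. Named are the 5, up to 4 genes of each list with the smallest p past the test, 67 genes fixed by name (37 tested, described where a result turns on them), and the 3 genes most like each of the 5. Alternatives were no centring, arrays scaled to one spread, other rules for probes, other minimum numbers of values, pairs of mice as random blocks, robust eBayes and leaving out each mouse.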

Additional observations from a re-analysis of the deposited data

Results flagged for a closer look

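Of 63 genes with 4 values that were checked for a mouse far from the other 3, 2 had one, and chance alone gives about 1 in 20; none of the 5 genes did. Cd163 was at -0.97 in mouse 3, against -0.63 to -0.58 in the others. F13a1 was at -0.17 in mouse 2, against -0.75 to -0.69 in the others.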

How the results depend on the processing

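No paired analysis was possible because there is 1 group of mice and 1 shared pool. The mean log ratios of the 5 genes kept their side of 0 and moved by less than 1 SD without centring and with scaled arrays. The other rules for probes could not move these means, since each of the 5 genes has 1 probe. Without each mouse in turn the means ranged from 0.67 to 0.83 (Mrc1), 0.48 to 0.58 (Siglecf), 1.11 to 1.21 (Cd207), 0.77 to 1.16 (Apoe) and -0.99 to -0.65 (Plin2). The count over all genes, 645 above and 403 below 0, fell to 286 and 116 with pairs of mice as random blocks, and without 1 mouse to 198 to 411 and 86 to 162. Counts over the lists also moved. With the random blocks, 0 genes passed above 0 among alveolar macrophage, other macrophage, lectin receptor and leukocyte genes, and 0 below 0 among dendritic cell, lectin receptor, lipid droplet, leukocyte and fat cell genes; 2 other macrophage genes and 3 cholesterol handling genes passed below 0. Cholesterol handling genes above 0 became 2 without centring, with scaled arrays and with a value on all 4 arrays, and lectin receptor genes above 0 became 2 in the last 2 of these settings. Lectin receptor genes below 0 became 1 without centring and with a value on at least 2 arrays. With scaled arrays, 1 lymphatic gene passed below 0, 2 dendritic cell genes above 0 (Naaa lost), and Adipoq was lost. With the probe of most values, 0 leukocyte genes (Cd47 lost), 3 lipid droplet genes (Lpin2 lost) and 2 alveolar type II genes passed above 0. With a value on all 4 arrays, 1 lipid droplet gene passed below 0. With a value on at least 2 arrays, 2 other macrophage genes and 1 lymphatic gene passed above 0. Lists can share a gene, so these need not be different genes. Without 1 mouse, counts above and below 0 ranged from 0 to 3 and 0 to 0 (alveolar macrophage), 0 to 1 and 2 to 3 (other macrophage), 1 to 4 and 0 to 0 (dendritic cell), 0 to 1 and 0 to 2 (lectin receptor), 1 to 2 and 1 to 3 (cholesterol handling), 3 to 4 and 0 to 2 (lipid droplet), 0 to 2 and 0 to 1 (leukocyte), 0 to 0 and 0 to 6 (fat cell), 1 to 2 and 0 to 0 (alveolar type II), and 0 to 0 and 0 to 1 (lymphatic). The cause of these moves was not tested beyond fewer samples or other genes entering the fit. The number of arrays sets the depth limit.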

Other observations

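The 5 genes lie on 4 chromosomes, and their neighbours, the 2 nearest protein-coding genes on each side by RefSeq, did not share their values where measured. Beside Apoe lies Apoc1, an apolipoprotein gene that macrophages express too. Its log ratio was -0.50, 0.05, -1.11 and -0.47 in mice 1 to 4, so it was on the other side of 0 from Apoe in 3 of 4 mice, and mouse 3 was farthest from 0 for both. Apoc1 did not pass limma (adjusted p = 0.121). Stam and Cacnb2, near Mrc1, had means of 0.03 ± 0.14 and -0.08 ± 0.15, Stambp and Atp6v1b1, near Cd207, of 0.02 ± 0.06 and 0.10 ± 0.08, and Rraga, near Plin2, of 0.16 ± 0.12 (SD, n = 4). Of the neighbours of Siglecf, none had a value on any array.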
